A study of Homo sapiens with 2 samples.

Results

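The S100, small proline-rich (SPRR) and annexin (ANXA) genes were followed through a knockdown of SET7/9, a histone and protein lysine methyltransferase, in MKN74 and MKN45, which are established cell lines from gastric cancer. The members were taken by name: every gene probe of the array whose gene symbol was an S100A, S100B, S100P, S100G or S100Z, an SPRR or an ANXA symbol, without regard to its value. This gave 52 probes for 41 genes out of 25940 gene names on the array, namely 19 S100, 11 SPRR and 11 ANXA genes. Each cell line was transfected by electroporation with SET7/9 siRNA or with negative control siRNA at 50 nM, and RNA was taken after 48 hrs. The 4 RNAs filled 2 two-colour Agilent arrays, 1 for each cell line. On both arrays Cy5 marked the SET7/9 siRNA cells and Cy3 the negative control cells, so that a dye effect of a probe and the knockdown cannot be told apart. Which SET7/9 siRNA was hybridised is not given in the sources used here. There were no replicate arrays, their number limits the precision, and no test was possible within a cell line. On each array, the error given beside a ratio is that of the scanner software's error model for the spot, on the log2 scale, and is not a replicate SD.

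S100 proteins are small calcium-binding proteins with a pair of EF hands, several of which act inside the cell on annexins and the cytoskeleton and outside it as alarm signals. SPRR proteins are proline-rich precursors that transglutaminases cross-link into the cornified envelope of squamous epithelium, and they are also made in injured glandular epithelium. Annexins bind phospholipid membranes in the presence of calcium, and some of them form complexes with an S100 partner, as annexin A2 does with S100A10. Most S100 genes and all the SPRR genes lie together in the epidermal differentiation complex on chromosome 1. On GRCh37, 26 member genes were probed there between 151955420 and 153604335, and 15 lay elsewhere.

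The SPRR promoters are shown first, since the SPRR2 genes lay above 0 and SPRR3 and SPRR1B below 0 on both arrays, as described further on. Each stretch is the 160 bases before the RefSeq start site on GRCh38.p14, read 5′ to 3′ on the strand of the gene, and ends at the base before that site. Capitals mark matches to AP-1 (TGANTCA), to a TATA box (TATAAA) and to the octamer (ATTTGCAT), each searched on both strands.
SPRR2A (chr1:153057513-153057672, minus strand): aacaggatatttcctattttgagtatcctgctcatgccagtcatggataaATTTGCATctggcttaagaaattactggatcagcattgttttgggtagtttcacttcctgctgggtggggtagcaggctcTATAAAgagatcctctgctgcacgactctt
SPRR2F (chr1:153113517-153113676, minus strand): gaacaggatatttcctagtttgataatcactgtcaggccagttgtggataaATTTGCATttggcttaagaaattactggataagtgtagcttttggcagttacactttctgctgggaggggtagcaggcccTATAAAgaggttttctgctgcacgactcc
SPRR3 (chr1:153001589-153001748, plus strand): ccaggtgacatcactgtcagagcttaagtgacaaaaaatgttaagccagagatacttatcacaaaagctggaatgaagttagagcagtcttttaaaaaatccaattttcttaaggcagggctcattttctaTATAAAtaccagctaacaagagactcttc
SPRR1B (chr1:153031043-153031202, plus strand): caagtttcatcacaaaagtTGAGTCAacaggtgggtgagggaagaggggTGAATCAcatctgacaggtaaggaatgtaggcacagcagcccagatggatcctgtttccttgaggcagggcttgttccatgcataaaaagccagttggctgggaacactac

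The SPRR2A and SPRR2F stretches were identical at 138 of 164 alignment columns (84.1%). SPRR2A against SPRR3 was at 54.2% and SPRR3 against SPRR1B at 59.5%. The octamer began 110 bases before the start site in SPRR2A and 109 bases before it in SPRR2F, and neither SPRR3 nor SPRR1B held it in the 250 bases before the start. In that longer window SPRR2A, SPRR2F and SPRR3 each also held an AP-1 match upstream of the printed stretch. Of the 41 member genes, 36 had a promoter in the RefSeq table, at 47 start sites. Of 8 SPRR genes among these genes, 6 held an AP-1 match, 7 a TATA box and 3 the octamer, where 6.57%, 10.7% and 1.63% of all 35116 promoters did. A member gene was counted if any of its start sites held a match. The share over all promoters counts each start site, so the units differ. Of 18 S100 genes 4 held an AP-1 match, 9 a TATA box and 0 the octamer, and of 10 annexin genes 1 held an AP-1 match, 4 a TATA box and 0 the octamer. A match is a description of the letters and not a bound site. The printed stretches are examples. Only 3 of 8 SPRR genes held the octamer, and whether a motif goes with the direction of the knockdown ratio was not tested.

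The SPRR2 genes are close paralogs, and the array probes were compared with each other for likeness of sequence. Among 1314 pairs of member probes for different genes, 1 pair differed at 6 or fewer bases, the probes of SPRR2E and SPRR2F, identical at 54 of 60 bases. Their first 30 bases, with the bases that differ between them in capitals, were as follows.
SPRR2E: aaccatCaAaAaatGctgttgatgttttct
SPRR2F: aaccatTaGaGaatTctgttgatgttttct

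The next closest pair, SPRR2A and SPRR2G, stood 20 edits apart. The signals of SPRR2E and SPRR2F are therefore given as uncertain between these genes. Probes were compared only with probes, so likeness of a probe to other stretches of a member transcript could not be seen. Whether an SPRR2A, SPRR2C or SPRR2D probe also matches the transcript of another SPRR2 gene was therefore not tested. Similarity to transcripts that have no member probe was not analysed either.

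A probe was kept on an array when 50% or more of its spots stood well above background in Cy3, in Cy5 or in both. Of the 52 member probes 38 were kept in MKN74 and 39 in MKN45. For 34 of the 41 genes at least 1 probe was kept in a cell line, and for 28 in both. S100A12, S100B, S100G, S100Z, SPRR2B, SPRR2G and SPRR4 were not well above background in either channel of either array. S100A8, S100A9 and ANXA6 were measured in MKN74 and not in MKN45. ANXA10, ANXA13 and S100A1 were measured in MKN45 and not in MKN74, and of S100A1 this held for 1 of its 2 probes and for Cy5 alone. All 11 annexin genes were measured in at least 1 cell line. Both cell lines carried glandular markers, with 7 of 8 genes of a list led by EPCAM, CDH1 and KRT18 well above background in Cy3 on each array. Of 7 squamous markers 3 were well above background in Cy3 on each array, and TP63 and DSG3 were not in any channel. Of 6 fibroblast markers COL1A2, COL3A1, DCN and PDGFRB were not well above background in any channel, while COL1A1 was in both channels of both arrays and LUM in both channels of MKN45.

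SETD7, the gene of SET7/9, checks the knockdown. At 1 of its 2 probes the processed signal was 369 in Cy3 and 90.1 in Cy5 in MKN74, and 197 and 51.2 in MKN45, with log2 ratios of -2.03 and -1.95 (errors 0.28 and 0.28), and of -1.36 and -0.99 after normexp and loess. At the other probe the log2 ratios were 0.24 (error 0.22) and -0.23 (error 0.21).

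In the knockdown most members lay near 0, and the probes past the 1.5-fold cutoff were SPRR, S100A8, S100A9 and S100A1 probes. At least 1.5-fold lower with SET7/9 siRNA were 3 of 38 member probes in MKN74, and 1.76% of all 20674 kept probes were lower there. At least 1.5-fold higher in MKN74 were 0 of 38, against 3.78% of all kept probes. In MKN45, 2 of 39 member probes were lower, beside 1.97% of all 22830 kept probes, and 3 were higher, beside 4.81%. Of 35 member probes kept on both arrays 1 was lower in both cell lines (0.373% of all 19595 such probes) and 0 were higher in both (0.75%). With 1 brightest probe for each gene, the median log2 ratio of the members was -0.08 in MKN74 and -0.07 in MKN45, and over all genes it was 0.00 and 0.02. In bulk RNA, fewer cells that express a gene and less of its RNA in each cell cannot be told apart.

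**Figure D1:**
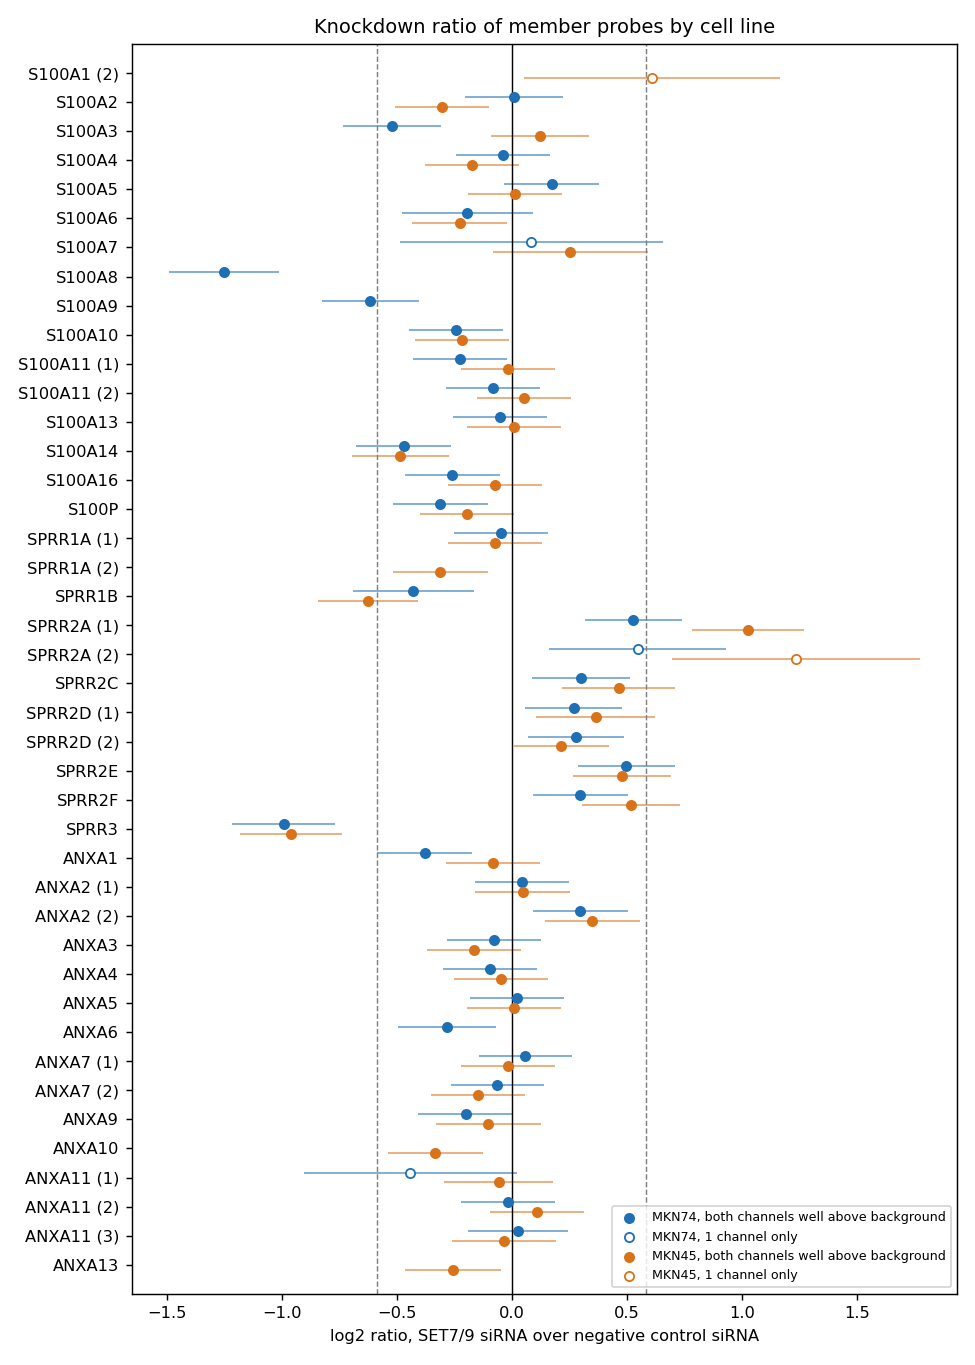
Log2 ratio of SET7/9 siRNA over negative control siRNA (x axis) for each member probe kept in at least 1 cell line, with the scanner software's error as bars; open circles have only 1 channel well above background, numbers in brackets order the probes of a gene by GRCh37 position, and dashed lines mark 1.5-fold. SPRR3 lies beyond the lower line in both cell lines at -0.99 and -0.96, while all SPRR2 circles lie to the right of 0.

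SPRR3, a cornified envelope precursor with many proline-rich repeats that is typical of the oesophagus, was the member lower in both cell lines. Its probe on chromosome 1, from 152976230 to 152976289 of GRCh37, had a processed signal of 807 in Cy3 and 405 in Cy5 in MKN74, and of 703 in Cy3 and 361 in Cy5 in MKN45. Cy5 was the dimmer channel on both arrays and every channel was well above background. The log2 ratio was thus -0.99 (error 0.22) for MKN74 and -0.96 (error 0.22) for MKN45, that is 1.99-fold and 1.95-fold lower. These ratios differed by 0.03 with a combined error of 0.32. After normexp background correction and loess the log2 ratios were -0.72 and -0.68, still past the cutoff.

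SPRR1B, another envelope precursor, gave 48.8 in Cy3 and 36.3 in Cy5 in MKN74, and 145 and 94.1 in MKN45. MKN74 had a log2 ratio of -0.43 (error 0.27), and MKN45 one of -0.63 (error 0.22), or 1.54-fold lower. Only the MKN45 value passed the cutoff, and after normexp and loess the log2 ratios were -0.18 and -0.32, neither of which did. SPRR1A, its close relative, had log2 ratios of -0.05 and -0.07 at its probe at 152957897 to 152957956. Its other probe was kept in MKN45 alone, with a log2 ratio of -0.31 (error 0.21).

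The SPRR2 genes, which encode short envelope precursors, went the other way. All 7 kept SPRR2 probes, for SPRR2A, SPRR2C, SPRR2D, SPRR2E and SPRR2F, had log2 ratios above 0 on both arrays, while 34.2% of all probes kept on both arrays did. Whether each of these SPRR2 probes reads only the gene it is named for was not tested, so they may not be separate observations. In MKN74 none passed the cutoff, and in MKN45 both SPRR2A probes did. The SPRR2A probe at 153028599 to 153028658 had signals of 165 in Cy3 and 238 in Cy5 in MKN74, and 43.1 and 87.8 in MKN45. The log2 ratios were 0.53 (error 0.21) for MKN74 and 1.03 (error 0.24) for MKN45, that is 1.44-fold and 2.04-fold higher, and the difference between the cell lines of 0.50 had a combined error of 0.32. After normexp and loess these log2 ratios were 0.37 and 0.44. The other SPRR2A probe, at 153028926 to 153028985, gave 21.1 in Cy3 and 30.8 in Cy5 in MKN74, and 9.74 and 23 in MKN45. Cy3 was not well above background on either array, and the bound set for this probe was 1.46-fold higher in MKN74 and 1.44-fold higher in MKN45. In MKN74 that bound is the ratio itself, a log2 ratio of 0.55 (error 0.38). After normexp and loess the log2 ratios of this probe were 0.29 and 0.18. Both are smaller than the bounds. Normexp here adds 50 to each channel, which draws ratios at such dim signals toward 0, so this does not test the bounds. The bounds are not firm minima, since they depend on the background correction.

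SPRR2E had signals of 176 in Cy3 and 248 in Cy5 in MKN74, and of 97.7 and 136 in MKN45, with log2 ratios of 0.50 (error 0.21) and 0.48 (error 0.21). SPRR2F, whose probe is close in sequence, had log2 ratios of 0.30 (error 0.21) and 0.52 (error 0.21). SPRR2C, which is annotated as a pseudogene in many catalogues, had log2 ratios of 0.30 (error 0.21) and 0.46 (error 0.24). SPRR2D was at 0.27 and 0.28 in MKN74 at its 2 probes, and at 0.36 and 0.21 in MKN45 at the same probes. None of these passed the cutoff, and with 1 probe for each gene the median log2 ratio of the 5 SPRR2 genes was 0.30 in MKN74 and 0.48 in MKN45. With normexp and loess those medians were 0.20 and 0.30, and all 7 probes stayed above 0 on both arrays.

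**Figure D2:**
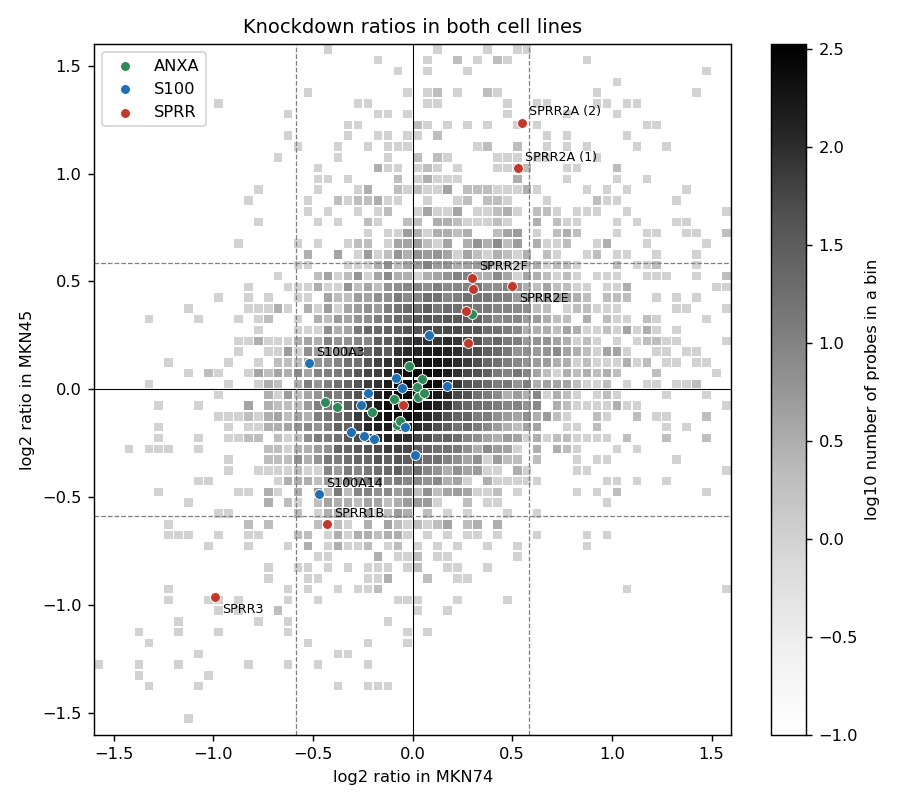
Log2 ratio in MKN74 (x axis) against MKN45 (y axis) for the probes kept on both arrays; grey squares count all such probes in bins on a log10 scale, coloured circles are the 35 member probes by family, and dashed lines mark 1.5-fold. SPRR3 lies at the lower left past both lines, and the 7 SPRR2 probes lie to the upper right of the point where both ratios are 0.

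S100A8 and S100A9 form calprotectin, the calcium- and zinc-binding heterodimer that is abundant in neutrophils and in stressed epithelium. S100A8 had a signal of 247 in Cy3 and 104 in Cy5 in MKN74, and of 4.11 and 7.29 in MKN45, where neither channel was well above background. In MKN74 its log2 ratio was -1.25 (error 0.24), that is 2.38-fold lower, and -0.94 after normexp and loess. S100A9, with a probe that lies from 153330874 to 153333143 and spans an intron, had 15700 in Cy3 and 10250 in Cy5 in MKN74, and 3.3 and 2.02 in MKN45, again with no channel well above background. In MKN74 its log2 ratio was -0.62 (error 0.21), that is 1.53-fold lower, and -0.60 after normexp and loess. Both subunits were thus lower in MKN74 with SET7/9 siRNA, and MKN45 gives no value for either. Of 5 leukocyte marker genes, 2 were well above background in Cy3 in MKN74, CD68 (log2 ratio 0.46) and CD14 (0.04), and the part of other cells in these values was not tested.

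S100A14, a regulator of epithelial cell adhesion and motility, had signals of 25400 in Cy3 and 18320 in Cy5 in MKN74, and of 935 and 668 in MKN45. Cy5 was the lower channel on both arrays, with log2 ratios of -0.47 (error 0.21) and -0.48 (error 0.21), short of the cutoff. S100A3, a cuticle protein of hair, lay at -0.52 (error 0.21) on the log2 scale in MKN74 but at 0.12 (error 0.21) in MKN45, and the difference of 0.64 had a combined error of 0.30. S100A1, the S100 protein of heart muscle, passed the cutoff in MKN45 with a log2 ratio of 0.61 (error 0.56) at signals of 9.19 in Cy3 and 14 in Cy5. Cy3 was not well above background there, no bound above 1-fold could be set, and the log2 ratio was 0.09 after normexp and loess.

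The other S100 genes stayed inside the cutoff. S100P had log2 ratios of -0.31 and -0.20, S100A10 of -0.24 and -0.22, S100A6 of -0.19 and -0.23, and S100A16 of -0.26 and -0.07 in MKN74 and MKN45. S100A2 was at 0.01 and -0.30, S100A4 at -0.04 and -0.17, S100A5 at 0.17 and 0.01, S100A7 at 0.08 and 0.25, and S100A13 at -0.05 and 0.01. S100A11 had log2 ratios of -0.23 and -0.08 at its probes in MKN74, and of -0.02 and 0.05 in MKN45. Of 14 S100 genes kept in MKN74 11 had a log2 ratio below 0, and of 13 in MKN45 8 did, while 49.0% and 46.7% of all genes did.

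No annexin probe passed the cutoff in either cell line. ANXA2, which with S100A10 forms a heterotetramer at the cell membrane, had signals of 51830 in Cy3 and 63680 in Cy5 in MKN74, and of 37200 and 47400 in MKN45, at a probe that spans an intron. Its log2 ratio there was 0.30 (error 0.21) and 0.35 (error 0.21), while its other probe was at 0.05 and 0.05. S100A10, its partner, lay below 0 on both arrays as given above. ANXA1, which acts through formyl peptide receptors, lay at -0.38 (error 0.21) on the log2 scale in MKN74 but at -0.08 (error 0.20) in MKN45. ANXA6 was at -0.28 (error 0.21) in MKN74, and ANXA10 and ANXA13 were at -0.33 (error 0.21) and -0.26 (error 0.21) in MKN45. ANXA3, ANXA4, ANXA5, ANXA7 and ANXA9 lay between -0.20 and 0.06. ANXA11 lay between -0.06 and 0.11 except at 1 probe whose Cy3 was not well above background in MKN74, where the log2 ratio was -0.44 (error 0.46).

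Where the members had several kept probes, these differed by less than the cutoff of 0.58 on the log2 scale. The range of the log2 ratio over the probes of a gene had a median of 0.13 in MKN74 (6 genes) and 0.16 in MKN45 (7 genes), and the largest range was 0.47, for ANXA11 in MKN74. Over all genes with several kept probes the median range was 0.18 (3779 genes) and 0.20 (4198 genes). ANXA3, ANXA9 and S100A7 were each printed 10 times, which gives the spread between spots. For ANXA3 the spots left after outliers gave a log2 ratio of -0.08 ± 0.025 (SD) in MKN74 and -0.17 ± 0.015 in MKN45. For ANXA9, a dimmer probe, these were -0.20 ± 0.092 and -0.10 ± 0.188. For S100A7 they were 0.08 ± 0.317 and 0.25 ± 0.189, at median Cy3 signals of 11.7 and 21.9. The spots of S100A7 in MKN74 ran from -0.47 to 0.44 and so lay on both sides of 0, whereas those of ANXA3 lay below 0 on both arrays.

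**Figure D3:**
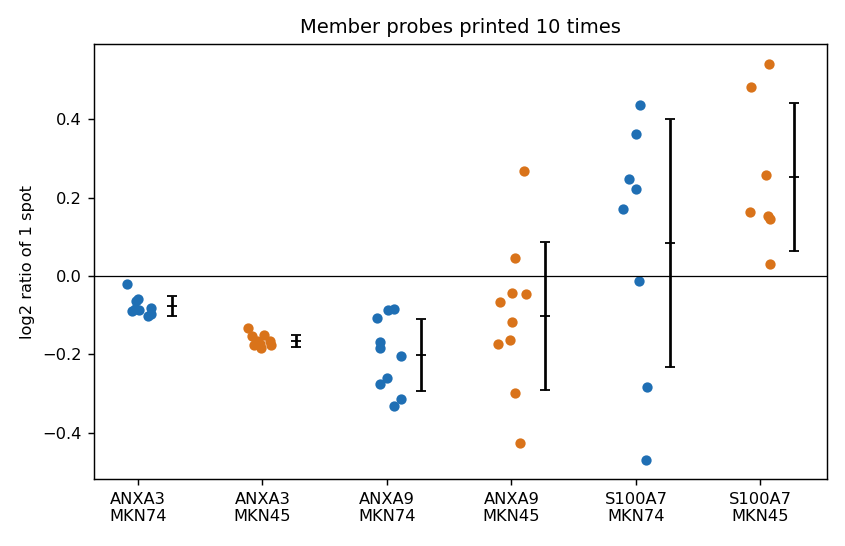
Log2 ratio of single spots (y axis) for the 3 member probes printed 10 times, in MKN74 (blue) and MKN45 (orange), without outlier spots, with mean and SD over spots in black. ANXA3 spots span little on each array, while S100A7 spots in MKN74 run from -0.47 to 0.44.

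With both arrays taken as replicates of the knockdown, limma over 19595 probes called 0 at a Benjamini-Hochberg adjusted p of 0.05 (0%), and so 0 of 35 member probes. An unadjusted p under 0.05 was found for 14 member probes and for 2569 of all probes (13.1%). These 14 comprised 9 of 10 SPRR probes, among them all 7 SPRR2 probes, with 4 S100 probes and 1 annexin probe. SPRR3 had the lowest p of the members, at 0.000455 (adjusted p = 0.255), at a mean log2 ratio of -0.98. S100A14 was at a p of 0.00429 and SPRR2E at 0.00406 in the same limma fit, each with an adjusted p of 0.355. The fit has 1 residual degree of freedom. After normexp and loess limma called 8.72% of the probes and 10 of the 35 member probes. Those lower were SPRR3 (mean log2 ratio -0.70, adjusted p = 0.000198), S100A14, SPRR1B, S100A16 and ANXA1, and those higher were both SPRR2A probes, SPRR2E, SPRR2F and the brighter ANXA2 probe. With both channels well above background or in the deposited table of log2 ratios, 0 of 32 member probes passed, with 13 under an unadjusted p of 0.05 in each. Over all probes 16.5% of 17362 and 14.4% of 17384 were under that unadjusted p in these limma fits, and 2 and 0 passed.

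**Figure D4:**
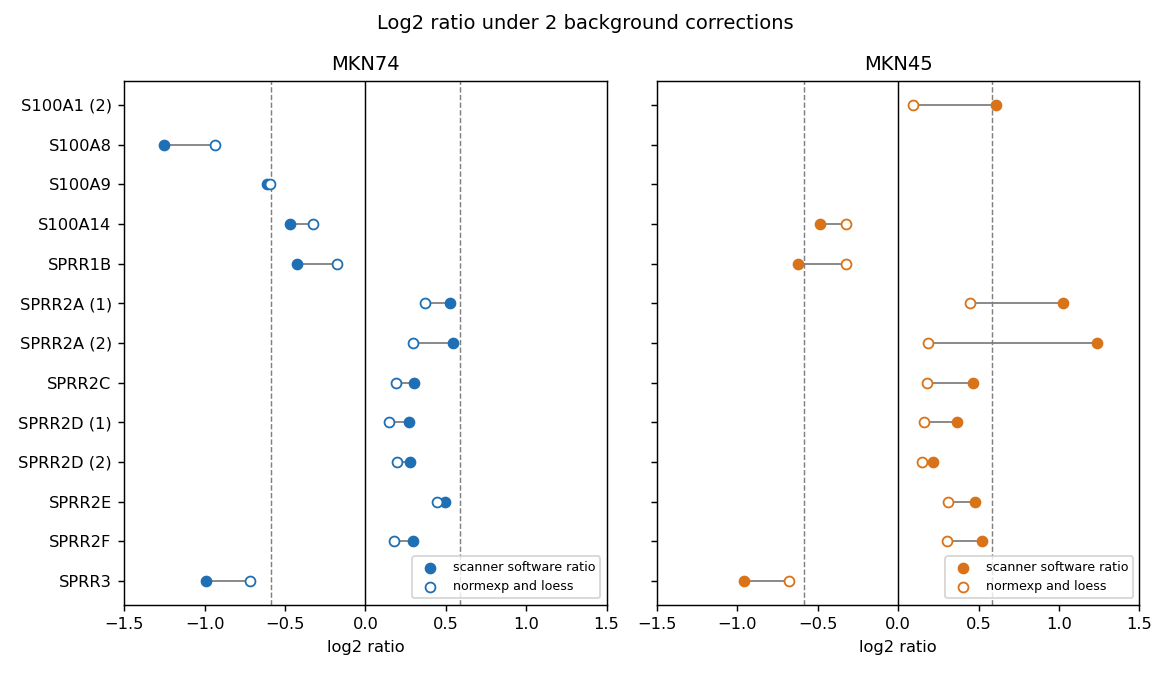
Log2 ratio (x axis) of the member probes past the cutoff, of the SPRR2 probes and of S100A14, in MKN74 (left) and MKN45 (right), from the scanner software (filled) and after normexp and loess (open); dashed lines mark 1.5-fold. SPRR3 stays past the cutoff in both cell lines, and the SPRR2A probes of MKN45 move from 1.03 and 1.24 to 0.44 and 0.18.

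The other genes in the neighbourhood were counted in the same way. Between the outermost S100 and SPRR probes on chromosome 1, 13 probes of other genes were kept in MKN74, of which 1 was lower and 3, each with 1 channel only, higher, and 8 in MKN45, of which 0 were lower and 1, with 1 channel only, higher. Over the array these shares were 1.76% and 3.78% in MKN74 and 1.97% and 4.81% in MKN45, and with so few probes kept no comparison of the shares was made. Their median log2 ratio was -0.02 and 0.07. Of 44 other cornified envelope and epidermal differentiation genes on the array, 20 were measured in MKN74 and 16 in MKN45. In MKN74, 2 of 22 kept probes were lower with both channels well above background, and 2 were higher with 1 channel only, beside the same shares of 1.76% and 3.78% over the array. SCEL, encoding the envelope protein sciellin, lay at -0.71 (error 0.22) on the log2 scale in MKN74 and in MKN45 at -0.54 (error 0.31). IVL, encoding involucrin, was at -0.61 (error 0.42) in MKN74 and not well above background in MKN45. Neither passed the cutoff after normexp and loess, at -0.47 for SCEL and -0.17 for IVL in MKN74. In MKN45 0 of 19 kept probes passed in either direction.

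Receptors and partners of S100 proteins and annexins were also counted. Of 23 such genes on the array 18 were measured in each cell line. In MKN74 0 of 27 kept probes passed the cutoff, and in MKN45 3 of 29 were lower with both channels well above background and 2 higher with 1 channel only. FPR1, a formyl peptide receptor that ANXA1 engages, had signals of 37.6 in Cy3 and 10.8 in Cy5 in MKN45 and a log2 ratio of -1.80 (error 0.38), against -0.25 (error 0.21) in MKN74, and after normexp and loess it was at -0.39 in MKN45. AGER, the receptor for advanced glycation end products that several S100 proteins bind, was at -0.90 (error 0.36) at 1 probe and 0.12 (error 0.21) at another. AHNAK, a scaffold of the ANXA2 and S100A10 complex, was at -0.63 (error 0.23) at 1 probe, and its other probes were at -0.06 and 0.05. After normexp and loess none of these 3 probes passed the cutoff in MKN45, with AGER at -0.25 and AHNAK at -0.29. For AGER and AHNAK the probes of 1 gene thus did not give the same picture.

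The control RNAs of the cell lines were then set against each other, probe by probe, on the Cy3 signal scaled to each array's 75th percentile. Many more member probes stood 2-fold apart here than between the siRNAs. Of 40 member probes well above background in Cy3 on at least 1 array, 11 were at least 2-fold higher in MKN45 and 14 at least 2-fold lower, while 26.2% and 18.9% of all 21613 such probes were. Where both arrays were well above background, 6 of 32 were higher and 11 lower, beside 16.9% and 17.5% of all 17414 such probes. There is 1 control RNA for each cell line, so these differences have no replicate check.

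S100A6, calcyclin, had the largest difference among the S100 genes measured in both cell lines. Its Cy3 signal was 34.7 in MKN74 and 100800 in MKN45, a log2 difference of 11.69, and 9.72 after normexp, loess and Aquantile scaling. S100A4, linked to motility and metastasis, had 1192 in MKN74 and 97350 in MKN45, a log2 difference of 6.54. S100A2 had 93.5 and 4786, a log2 difference of 5.86, and S100A10 had 31010 and 56870, a log2 difference of 1.06. After normexp, loess and Aquantile S100A2 was at 5.07, and S100A10 at 0.80 was no longer 2-fold apart. These 4 genes were all higher in MKN45. In the other direction S100A9 was higher in MKN74 with a bound of 1230-fold and S100A8 with a bound of 20.6-fold, MKN45 being not well above background. After normexp, loess and Aquantile their log2 differences were -7.91 and -2.14, smaller in size than these bounds. S100A14 had 25400 in MKN74 and 935 in MKN45 and was 23.9-fold higher in MKN74, S100P 2.86-fold, S100A3 2.30-fold and S100A16 1.89-fold, where S100A3 at a log2 difference of -0.96 was not 2-fold apart after normexp, loess and Aquantile. S100A11 differed by 0.05 and -0.02 on the log2 scale at its probes.

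Of the SPRR genes, SPRR1A had a Cy3 signal of 480 in MKN74 and 28310 in MKN45 at the probe from 152957897 to 152957956, 67.0-fold higher in MKN45. At its other probe, where MKN74 was not well above background, the bound was 4190-fold higher in MKN45. The log2 difference of that probe after normexp, loess and Aquantile was 10.11, smaller than the bound. SPRR1B was 3.38-fold higher in MKN45. SPRR3 did not follow them: its log2 difference was -0.01. SPRR2A was 3.37-fold, SPRR2C 2.31-fold and SPRR2F 2.09-fold higher in MKN74. SPRR2D was 3.20-fold higher in MKN74 at the probe from 153012353 to 153012412, whereas at the probe from 153012604 to 153012663 it was 1.56-fold higher in MKN45. SPRR2D thus has no settled direction between the cell lines. After normexp, loess and Aquantile the log2 differences of SPRR1B (0.73), SPRR2C (-0.81) and SPRR2F (-0.90) no longer reached 2-fold, and those of SPRR2A (-1.14) and of the first SPRR2D probe (-1.09) still did.

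ANXA10, an annexin of gastric foveolar epithelium, was higher in MKN45 with a bound of 110-fold, and ANXA13, an annexin of intestinal epithelium, with a bound of 14-fold. ANXA6 was higher in MKN74 with a bound of 10.6-fold. After normexp, loess and Aquantile the log2 differences of ANXA10, ANXA13 and ANXA6 were 5.25, 2.26 and -1.43, each smaller in size than its bound. Among annexins measured in both cell lines ANXA3 was 6.86-fold, ANXA1 4.57-fold and ANXA9 3.60-fold higher in MKN74, and ANXA7 was so by 1.69-fold and 2.31-fold at its probes. ANXA4 and ANXA5 were 1.73-fold and 1.66-fold higher in MKN45. ANXA11 had a bound of 2-fold higher in MKN45 at 1 probe, with a log2 difference of 0.36 after normexp, loess and Aquantile. Its other probes were 1.18-fold and 1.20-fold higher in MKN74, so ANXA11 has no settled direction. The Cy3 signals of the repeated ANXA3 spots, not scaled between arrays, lay between 6570 and 7190 in MKN74 and between 876 and 916 in MKN45. These spots are prints of 1 probe that share 1 RNA on each array. They give the spread within an array and not that between cultures.

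**Figure D5:**
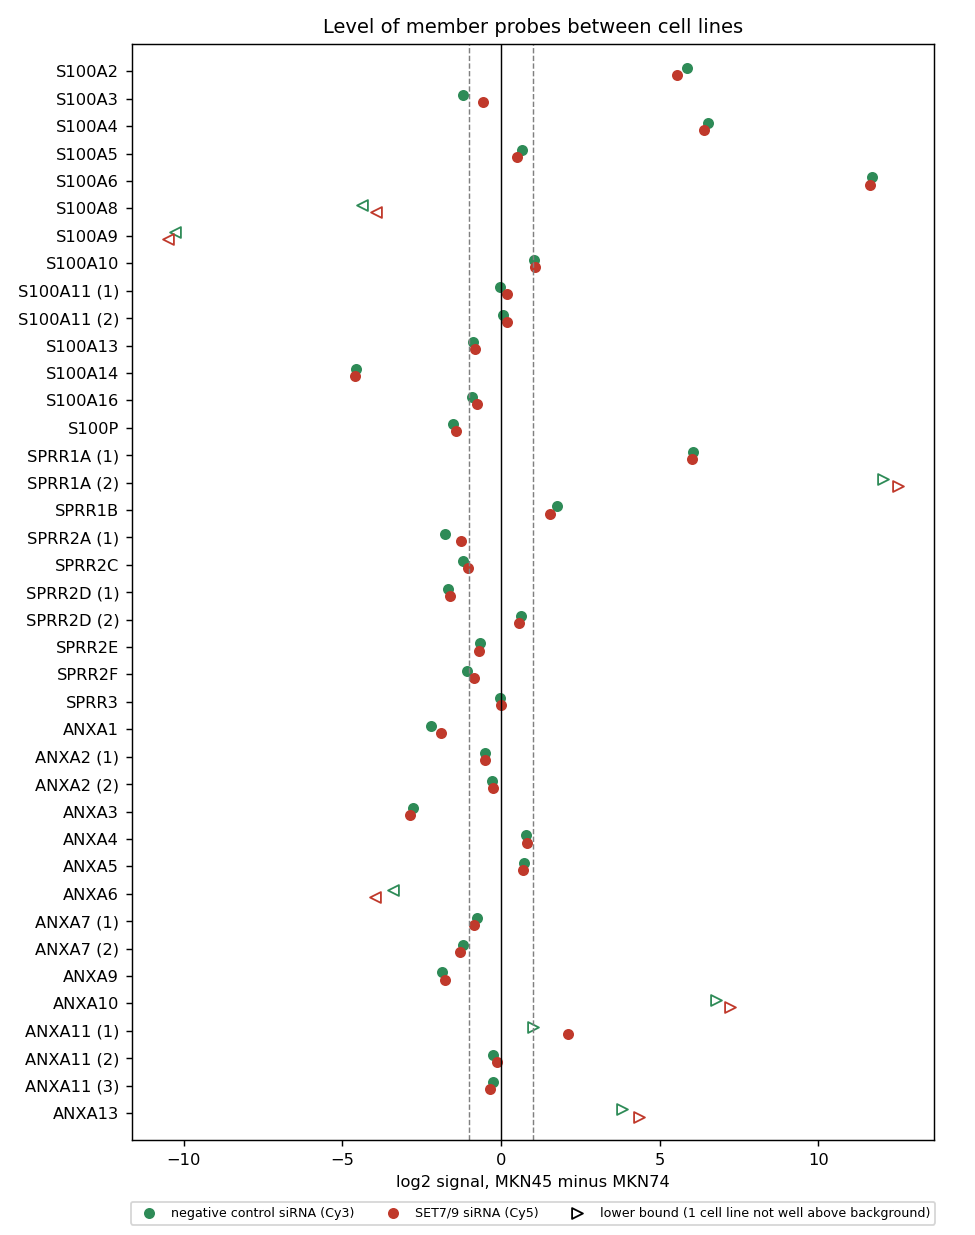
Log2 signal in MKN45 minus MKN74 (x axis) for member probes, in negative control siRNA (green) and SET7/9 siRNA (red); circles are scaled to each array's 75th percentile, open triangles are lower bounds on the Aquantile scale, numbers in brackets order the probes of a gene by GRCh37 position, and dashed lines mark 2-fold. The green and red points of a probe lie close together, from S100A6 at 11.69 to S100A14 at -4.58.

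The cell lines were also compared in the SET7/9 siRNA RNA. Over the 32 member probes with all 4 signals well above background, the difference between the cell lines in Cy5 departed from that in Cy3 by a median of 0.09 on the log2 scale, against 0.12 over all 17362 such probes, and had the same sign for 30 (93.8%), as it did for 94.5% of all such probes. The largest departure was 0.63, for S100A3, and SPRR2A followed with a difference of -1.75 in Cy3 and -1.27 in Cy5. Cy5 and Cy3 of 1 array share its spots and are not independent of each other. For comparison, 31.3% of all probes and 16 of 35 member probes had a knockdown log2 ratio below 0 on both arrays. Above 0 on both arrays were 34.2% of all probes and 12 of 35 member probes.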

How the data were processed

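RNA of MKN74 and MKN45 cells was measured on Agilent Human GE 4x44K v2 arrays, 1 for each cell line. Scanner files that the authors deposited (Feature Extraction 10.7.3.1) hold the spot intensity of each channel, processed by background subtraction, surrogate values for dim signals and dye normalization, and the log10 of Cy5 over Cy3, beside an error for each spot. A second file the authors deposited gives log2 ratios, of which 99.7% (MKN74) and 99.4% (MKN45) lay within 0.01 of those computed here.

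These ratios were converted to log2 and averaged over the spots of each probe, without control spots and spots marked as outliers, and probes were kept if 50% or more of their spots stood well above background in Cy3, in Cy5 or in both. The cutoff was 1.5-fold. For a lower bound, signals of both arrays were brought to one scale by Aquantile, and a channel not well above background took its own signal or, if higher, that of the faintest probe well above background there. Such bounds are open to dye bias, depend on the background correction and are not firm minima. Cy3 was compared between arrays as log2 processed signal minus the 75th percentile, at 2-fold. limma 3.58.1 (R 4.3.3, lmFit and eBayes) was fitted over all probes kept on both arrays, with Benjamini-Hochberg adjustment. Python 3.11.15 was used elsewhere. The limma step was tested on simulated replicate arrays, which checks the code and not whether the cell lines can stand as replicates. Whether each RNA came from 1 culture is not given in the sources used here, so that the limma p-values measure only the spread between these arrays.

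The members and the gene lists were chosen with earlier results of these data known. Members past 1.5-fold, with bounds, or with the 4 largest control differences for each direction and family are given with values. From the other lists those past the cutoff in both channels are named. Probe positions are those of the array design on GRCh37. Of 52 member probes 49 matched a RefSeq transcript by accession, all under the same symbol. Promoters are from RefSeq on GRCh38.p14. The arrays' pooled SD of the log2 ratio over repeated spots was 0.087 in MKN74 and 0.099 in MKN45. Alternatives covered the background correction, centring, filters, source of the values, scaling and cutoff. Normexp was run with an offset of 50 in each channel, which draws ratios and differences of dim signals toward 0. Values that are smaller after it are thus no test of the bounds.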

Additional observations from a re-analysis of the deposited data

How the results depend on the processing

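The counts of member probes past 1.5-fold held under median centring and with outlier spots kept. Without a filter 8 were lower in MKN74, 6 in MKN45 and 3 in both cell lines, in place of 3, 2 and 1, since probes near background then enter. At 2-fold 1 was lower in MKN74, 0 in MKN45 and 0 in both, and 2 were higher in MKN45, the SPRR2A probes. The shares over all probes without a filter and at 2-fold are not given here. Normexp and loess left 1 lower and 0 higher in MKN45. With both channels well above background, and in the deposited table, 1 was higher in MKN45. limma called 10 member probes after normexp and loess in place of 0, and 8.72% of all probes in place of 0%. The rise was thus not confined to the members, and its cause was not tested. Between control RNAs, 7 member probes were at least 2-fold higher in MKN45 after normexp, loess and Aquantile, and 6 with Cy3 well above background on both arrays, in place of 11. The range between probes of a gene had a median of 0.15 and of 0.14 with both channels well above background. Under normexp and loess, where the offset of 50 draws dim ratios toward 0, 17 of 21 ratios of single probes moved by more than the spot SD. Of the 21, 0 did under median centring or with outlier spots kept, and of 18, 0 did with both channels well above background or in the deposited table. These last settings could hardly move a ratio and are no check of it. Each of these probes has 1 spot, a filter does not alter a ratio, and the deposited ratios nearly all equal those used here. Median centring shifts the ratios by only 0.006 in MKN74 and 0.014 in MKN45. None of these ratios changed sign. With 1 array for each cell line no sample could be left out. Each ratio pairs the siRNAs of 1 cell line on 1 array, and limma was fitted on these pairs. What limits these values is signal over background, as for S100A1, S100A7 and the dimmer SPRR2A probe, and the lack of a dye swap.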
